A study of Mus musculus with 3 samples.

Results

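The epidermis rests on a basement membrane that its own basal keratinocytes help to build. The 9 genes described here encode components of that sheet, which are the laminin chains Lama3 and Lamb3 of laminin-332, the chains Lama5, Lamb1 and Lamc1 of laminin-511, the anchoring fibril collagen Col7a1, the collagen IV chains Col4a1 and Col4a2, and the linker nidogen Nid1. They were taken by name, with every probe set that the array annotation assigned to exactly 1 of these symbols. That gave 19 probe sets for 9 of the 18193 genes with such a probe set. A probe set is the group of short oligonucleotides that reports 1 transcript on the array. Transcripts were measured on Affymetrix Mouse Genome 430 2.0 arrays in primary epidermal keratinocytes of neonatal ICR mice. There was 1 array of WT cells and there were 2 of RASSF9-/- cells, all grown in keratinocyte serum-free medium, which the methods describe as low in calcium, to a confluent monolayer.

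The RASSF9-/- mice were homozygous for an LMP1 transgene whose insertion removed a segment of a Rassf9 intron, and the WT mice carried neither change. RASSF9-/- here stands for 1 transgene-insertion line, so the deletion was always accompanied by the LMP1 transgene. The methods give 1 mouse for WT, 2 mice for RASSF9-/- and 1 culture plate per array. The sample descriptions give 24 h of culture for WT and 48 h for both RASSF9-/- samples, whereas the methods give the same culture time for all. Should the descriptions be right, genotype and time in culture cannot be told apart. The array labels give the same date to the WT array and RASSF9-/- array 1 and another date to RASSF9-/- array 2, so the difference between array 1 and WT is the one taken within a date. As there was a single WT array, the spread among WT mice was not measured, and every difference from WT given below shares that array.

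In the basement membrane of skin, laminin trimers bind integrins on the basal keratinocyte surface and collagen IV forms a covalent network beneath them. Nidogen links the laminin and collagen IV networks, and fibrils of collagen VII anchor the sheet to the dermis. Laminin-332 is the chief ligand of the hemidesmosome, the junction that holds basal cells to this sheet, while laminin-511 is shared with many other epithelia. The chains of laminin-332 and collagen VII are made mainly by keratinocytes in skin, and nidogen is known mainly as a product of fibroblasts. Inherited loss of laminin-332 or collagen VII in people causes blistering of the skin.

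Col4a1 and Col4a2 are transcribed in opposite directions from a common promoter, so the windows at their starts are shown here for the only members that share one. Each window reaches from 250 bases before to 50 bases after the annotated gene start in RefSeq (build GRCm38.p6) and is printed 5′ to 3′ on the strand of its gene. The Col4a1 window lies at chr8:11312777-11313076 on the minus strand and the Col4a2 window at chr8:11312555-11312854 on the plus strand. Capitals mark the 78 bases common to both, which are the reverse complement of each other, and the annotated starts are 21 bases apart.
Col4a1: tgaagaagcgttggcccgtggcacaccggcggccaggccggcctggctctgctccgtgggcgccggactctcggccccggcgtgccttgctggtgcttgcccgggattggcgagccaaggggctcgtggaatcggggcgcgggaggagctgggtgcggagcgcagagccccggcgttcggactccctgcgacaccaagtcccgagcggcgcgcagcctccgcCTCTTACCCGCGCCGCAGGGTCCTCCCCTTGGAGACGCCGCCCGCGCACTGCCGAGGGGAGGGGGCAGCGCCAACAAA
Col4a2: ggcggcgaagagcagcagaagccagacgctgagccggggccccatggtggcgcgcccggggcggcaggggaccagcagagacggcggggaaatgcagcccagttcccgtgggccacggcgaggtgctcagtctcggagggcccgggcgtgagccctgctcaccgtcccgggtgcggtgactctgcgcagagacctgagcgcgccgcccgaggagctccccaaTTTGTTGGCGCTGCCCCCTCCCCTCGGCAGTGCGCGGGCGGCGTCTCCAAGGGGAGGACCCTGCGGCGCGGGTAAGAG

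Windows of Col7a1 and Nid1 are shown because these were the members with the largest differences from WT in either direction. The Col7a1 window is chr9:108953336-108953635 and the Nid1 window chr13:13437352-13437651, both on the plus strand of GRCm38.p6. Capitals mark the GC box, searched as GGGCGG on both strands, which the transcription factor Sp1 is known to bind.
Col7a1: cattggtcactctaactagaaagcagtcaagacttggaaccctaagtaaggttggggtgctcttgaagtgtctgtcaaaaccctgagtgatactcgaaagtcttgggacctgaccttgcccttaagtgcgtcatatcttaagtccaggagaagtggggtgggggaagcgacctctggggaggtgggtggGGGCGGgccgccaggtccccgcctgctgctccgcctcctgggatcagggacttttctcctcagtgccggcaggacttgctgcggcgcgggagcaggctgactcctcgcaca
Nid1: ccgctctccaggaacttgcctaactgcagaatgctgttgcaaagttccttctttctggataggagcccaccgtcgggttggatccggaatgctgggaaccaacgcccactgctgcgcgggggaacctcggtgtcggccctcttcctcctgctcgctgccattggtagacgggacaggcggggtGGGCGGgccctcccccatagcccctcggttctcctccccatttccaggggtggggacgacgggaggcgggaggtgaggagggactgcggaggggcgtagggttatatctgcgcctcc

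RefSeq windows of this kind were used for 7 of the 9 members, and none was used for Lama3 and Lamc1. Member windows on 1 chromosome were left out of the search, while the windows of all genes had no such exclusion. The bases of the Col4a1 window were 74.0% G or C and those of the Col4a2 window 73.7%, against 58.7% for Col7a1, 64.7% for Nid1 and a median of 52.7% over all 32851 windows. GC box matches numbered 4 for Lama5, 3 for Col4a2, 2 for Lamb1, and 1 each for Col4a1, Col7a1 and Nid1, with 0 for Lamb3. The share of all windows with at least 1 match was 35.7%. CCAAT was found once each in the windows of Col4a1, Col4a2, Col7a1, Lamb1 and Nid1 and in 37.4% of all windows. The AP-1 motif TGANTCA, the TATA box written TATAAA and the E box CACGTG were in 0 member windows, and in 7.81%, 13.6% and 7.15% of all windows, and no matches of different motifs overlapped in the member windows. These matches are letters in a window and carry no measurement of binding.

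All values that follow are MAS5 signals, a linear brightness scaled by the authors to the same trimmed mean on every array, and differences are on the log2 scale. The signal of a probe set is not comparable with that of another, so no gene is ranked against another by level. Summed signals of marker lists, given below, add unlike probe sets, those in background included. Such sums follow the brightest probe sets, are set side by side only between arrays, and do not measure the amount of a cell type. A signal of 78.4, the highest among the 27 control probe sets for bacterial transcripts, was taken as the background limit. Of the 19 member probe sets, 13 were above it on every array and 4 below it on every array. Genes were tested on the brightest probe set, and 14 of the 19 probe sets passed the filter of a mean signal at or above 82.7, so that all 9 members were among the 11089 genes tested. The Rassf9 probe sets, read as a check of the labels, gave 478.1 and 340.4 on the WT array, 59.6 and 68.2 on RASSF9-/- array 1, and 120.2 and 76.7 on array 2. Of the RASSF9-/- values, only 120.2 was above the background limit. The deleted segment is intronic, so these probe sets read the transcript and not the deletion.

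The basement membrane genes did not differ in 1 direction between RASSF9-/- and WT keratinocytes. Col7a1 was lower on both RASSF9-/- arrays, Lamb1 and Lama5 were higher on both, and Nid1 was high on RASSF9-/- array 2 only. The laminin-332 and collagen IV chains stayed near WT, and the farthest of them was Col4a1 on array 1, at -0.33 on the log2 scale. At an adjusted p under 0.05 in limma (Benjamini-Hochberg over all genes tested), 0 of the 9 members were called, against 9 genes or 0.0812% of all genes tested. At an unadjusted p under 0.05 the count was 1, Col7a1, against 5.55% of all genes. Rassf9, the disrupted gene, was itself not called at the adjusted threshold (log2 difference -2.50, SE 0.67, adjusted p = 0.530 by limma). With these arrays, a gene that was not called may therefore still differ. Signals were lower on both RASSF9-/- arrays for 3 members (Lamc1, Col7a1 and Col4a1), against 32.7% of all genes, and higher on both for 5 (Lama3, Lamb3, Lama5, Lamb1 and Nid1), against 33.6%. Col4a2 lay on opposite sides of WT on the 2 arrays. In bulk RNA of this kind, fewer cells of a type and less RNA per cell cannot be told apart.

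**Figure D1:**
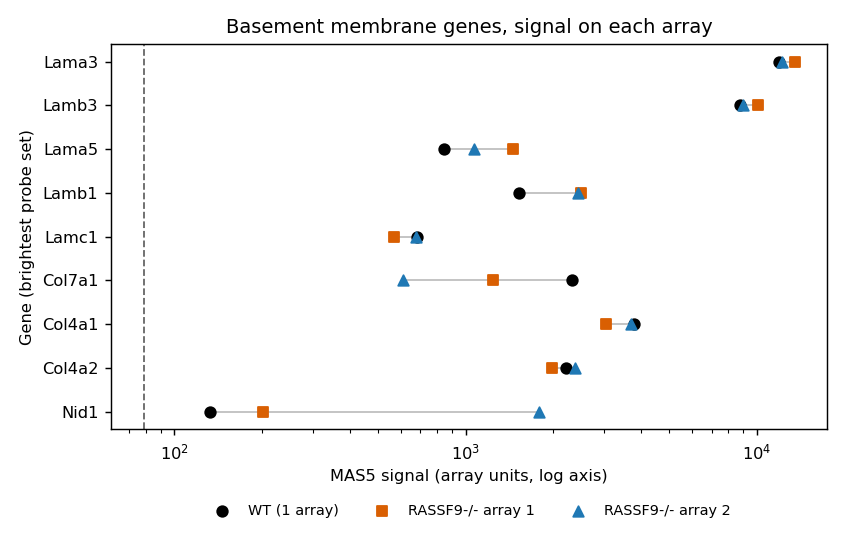
MAS5 signal (log axis, array units) of the brightest probe set of each of the 9 genes on the WT array (circle), RASSF9-/- array 1 (square) and RASSF9-/- array 2 (triangle), with a dashed line at the background limit of 78.4. The symbols of Lama3, Lamb3, Lamc1, Col4a1 and Col4a2 lie close together, Col7a1 steps down from 2329.5 to 608.5, and the Nid1 triangle at 1787.7 stands far from its circle at 132.1.

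The 2 laminin-332 chains measured here were nearly level across the arrays. Lama3 encodes the alpha chain, which carries the integrin-binding end of the trimer. Its signal was 11945 on the WT array, 13530.2 on RASSF9-/- array 1 and 12249 on array 2. Lamb3, the beta chain, had a signal of 8799 in WT, 10129.7 on array 1 and 9009 on array 2. Both were slightly higher on the 2 RASSF9-/- arrays, with array 1 the highest. The log2 difference from WT was 0.11 for Lama3 (SE 0.31, 95% interval -0.64 to 0.85) and 0.12 for Lamb3 (SE 0.31, 95% interval -0.64 to 0.88), with an adjusted p of 1.00 for each by limma. Highest over lowest signal was 1.13 for Lama3 and 1.15 for Lamb3, and 7.20% and 8.76% of all genes tested had a smaller ratio. With quantile normalization the value of array 2 turned to -0.04 for both genes. The other probe set of Lama3 was in background on all arrays, at 14.3, 6.60 and 54.0.

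The laminin-511 chains are given 1 by 1, and differences between the chains were not tested. Lama5, the alpha chain, gave 844.5 on the WT array, 1454.3 on RASSF9-/- array 1 and 1073.5 on array 2. Both RASSF9-/- signals were above WT, by 0.78 and 0.35 on the log2 scale, and array 2 lay nearer to WT than to array 1 in signal. The mean difference was 0.57 (SE 0.41, 95% interval -0.42 to 1.56, adjusted p = 1.00 by limma), a 1.48-fold higher signal with an interval of 0.745 to 2.94. A further Lama5 probe set gave 413.7, 889.1 and 541.9 in the same order of arrays, so it was also above WT on both, by 1.10 and 0.39, while the third stayed in background at 43.3, 41.0 and 59.5.

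Lamb1, the beta chain of laminin-511 and of laminin-111, was the laminin gene with the closest pair of RASSF9-/- values. Its signal was 1529.1 in WT, 2495.1 on RASSF9-/- array 1 and 2425.2 on array 2. The RASSF9-/- arrays differed from each other by 0.04 on the log2 scale, and both stood above WT, by 0.71 and 0.67. The mean difference of 0.69 (SE 0.35, 95% interval -0.15 to 1.52), or 1.61-fold, had an adjusted p of 0.988 by limma, and 9.59% of all genes tested had a difference at least as high. In 2 further probe sets, designed from the same transcript record, Lamb1 was above WT on both arrays as well. These gave 470.0 in WT, 557.3 and 845.9 in RASSF9-/- for one, and 268.5 in WT, 390.8 and 326.9 in RASSF9-/- for the other. The order of the 2 RASSF9-/- arrays was therefore not the same in the 3 probe sets, and the fourth was in background on every array.

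Lamc1, the gamma chain that laminin-511 shares with most other laminins, had a signal of 681.0 in WT, 570.1 on RASSF9-/- array 1 and 677.8 on array 2. Array 1 was the lowest, and array 2 lay at the WT value. The log2 difference was -0.13 (SE 0.43, 95% interval -1.17 to 0.91, adjusted p = 1.00 by limma). The value of array 2, -0.01, turned to 0.15 when each array was divided by its median and to 0.07 with quantile normalization. The other Lamc1 probe set gave 136.1 in WT, 26.0 on array 1, which is in background, and 181.4 on array 2, so it too had array 1 the lowest.

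**Figure D2:**
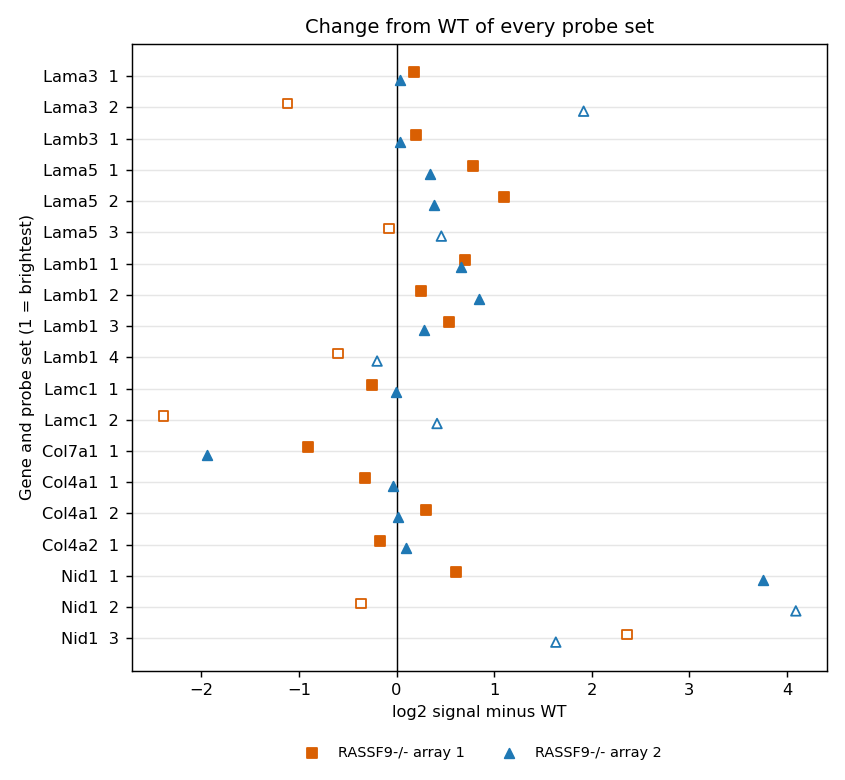
Log2 signal minus WT (horizontal axis) for each of the 19 probe sets, numbered within a gene from the brightest, on RASSF9-/- array 1 (squares) and array 2 (triangles). Open symbols mark probe sets below the background limit on at least 1 of the 3 arrays, and the filled symbols of Lama5 and Lamb1 all lie to the right of 0.

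The collagen IV chains, which assemble as a trimer of 2 Col4a1 chains and 1 Col4a2 chain, stayed near WT. Col4a1 had a signal of 3803 in WT, 3034 on RASSF9-/- array 1 and 3697 on array 2. Col4a2, which is read in the opposite direction from the shared stretch printed above, had 2220.6 in WT, 1980.7 on array 1 and 2382.5 on array 2. In both genes array 1 was the lowest, and the RASSF9-/- arrays differed from each other by 0.28 for Col4a1 and 0.27 for Col4a2 on the log2 scale. The difference from WT was -0.18 for Col4a1 (SE 0.34, 95% interval -1.01 to 0.64) and -0.03 for Col4a2 (SE 0.36, 95% interval -0.89 to 0.83), with an adjusted p of 1.00 each by limma. A second Col4a1 probe set gave 1214.0, 1495.1 and 1226.9, which is above WT on both RASSF9-/- arrays, by 0.30 and 0.02. The 2 probe sets of Col4a1 thus disagreed in sign, and the sign of Col4a1 on array 2 also turned, to 0.11, when arrays were divided by their medians. These signs are within the interval of the difference and no direction is given for Col4a1.

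Col7a1 encodes collagen VII, the sole collagen of the anchoring fibrils. Its only probe set gave a signal of 2329.5 on the WT array, 1241.5 on RASSF9-/- array 1 and 608.5 on RASSF9-/- array 2. WT was the highest of the 3, and the 2 RASSF9-/- values lay apart from each other by 1.03 on the log2 scale, a gap that 13.0% of all genes tested reached or passed. WT was 1.88 times array 1, the array of the same date, and 3.83 times array 2. The fitted log2 difference was -1.42 (SE 0.52, 95% interval -2.67 to -0.18), which is a 2.68-fold lower signal in RASSF9-/- with an interval of 1.13 to 6.36. The unadjusted p was 0.0313 and the adjusted p 0.796 by limma, so the gene did not pass the test over all genes. A difference as low or lower was found for 243 genes, 2.19% of those tested. Col7a1 kept its sign on both arrays under division by the median and under quantile normalization.

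Nid1 encodes nidogen, which bridges the laminin gamma chain and collagen IV. The signal was 132.1 on the WT array and 201.1 on RASSF9-/- array 1, and reached 1788 on RASSF9-/- array 2. Array 2 alone was high, at 13.5 times WT and 8.89 times array 1, while array 1 was 1.52 times WT. The RASSF9-/- arrays were 3.15 apart on the log2 scale, and 46 genes, 0.415% of those tested, had a gap at least as wide. The fitted difference of 2.18 had an SE of 1.19 and a 95% interval from -0.68 to 5.05, with an adjusted p of 1.00 by limma. It rests on array 2, since without it the difference is 0.61 and without array 1 it is 3.76. A second probe set, designed from the same transcript record, showed the same split, with 20.7 in WT and 16.1 on array 1, both in background, and 352.7 on array 2. Against the background limit, array 2 was at least 4.50-fold higher there, and the third probe set was in background on all arrays, at 7.10, 36.5 and 22.0. Nid2, which encodes the related nidogen-2, was in background on every array, at 44.7, 5.00 and 9.40.

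**Figure D3:**
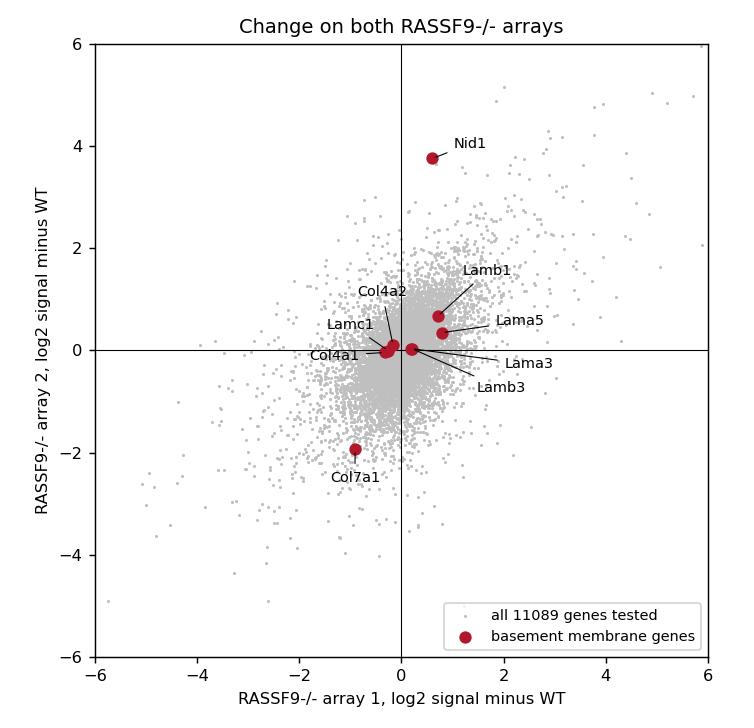
Log2 signal minus WT on RASSF9-/- array 1 (horizontal axis) and on RASSF9-/- array 2 (vertical axis) for the 11089 genes tested (grey points), with the 9 basement membrane genes in red and 9 genes beyond 6 on either axis not drawn. Both axes share the WT array, and Nid1 at 0.61 and 3.76 and Col7a1 at -0.91 and -1.94 are the members farthest from 0.

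Set beside all genes, the members' median log2 difference was 0.11, with 0.18 on RASSF9-/- array 1 and 0.04 on array 2, and the median over all genes tested was -0.01, with 0.05 and -0.04. Division by the array median moved the median of all genes to -0.08 on array 1 and 0.11 on array 2. The members' medians were then 0.06 and 0.19, so that they stood above all genes by a small amount on both arrays, as without that division. On array 1 this did not hold in other settings. With probe sets averaged within a gene, the members' median there was -0.09 against 0.02 for all genes. With a filter at the 75th percentile it was 0.007 against 0.022. The averaging and the stricter filter left Nid1 untested, so their medians are over 8 members and not 9. Such medians describe the members and are not tested.

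Among 5 further laminin chains with a probe set, 3 were tested and 0 were called. Of the 3 tested, 2 were higher on both RASSF9-/- arrays, against 33.6% of all genes, and 1 was lower on both, against 32.7%. Their median log2 difference, 0.43, is the value of Lama4 alone, which was in background on the WT array and array 1. Lamb2, the beta chain that takes the place of Lamb1 in laminin-521, had a signal of 278.7 in WT, 122.0 on array 1 and 231.1 on array 2, a difference of -0.73 (adjusted p = 1.00 by limma). Lamc3 gave 54.5 in WT, in background, and 82.6 and 169.0 in RASSF9-/-, and Lama4 gave 70.5, 77.8 and 116.1. Both exceeded the filter limit of 82.7 on array 2 only. The filter thus favoured a higher RASSF9-/- signal in Lamc3 and Lama4, and no direction is read from them. Among the laminin beta chains of the 2 lists, Lamb1 thus lay above WT, Lamb2 below it and Lamb3 near it at 0.12, none past the test.

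The other matrix components of basement membranes comprised 21 genes, of which 11 were tested. The count was 6 lower on both RASSF9-/- arrays, 3 higher on both and 0 called, and 1 had an unadjusted p under 0.05 by limma. The median was -0.20. Col4a5, an alpha chain of a different collagen IV trimer, had a signal of 1973.0 in WT, 979.9 on array 1 and 863.1 on array 2. Its log2 difference of -1.10 (SE 0.38, adjusted p = 0.770 by limma) stood beside -0.18 and -0.03 for Col4a1 and Col4a2, a contrast between chains that was not tested. Ntn4, a laminin-related netrin of basement membranes, gave 1084.0, 617.4 and 296.7 (log2 difference -1.34, SE 0.56, adjusted p = 0.911 by limma), with array 2 the lower of the RASSF9-/- pair. Fbln2, a fibulin that binds nidogen and laminin, gave 296.7, 228.3 and 146.3 (log2 difference -0.70). Hspg2, the heparan sulfate proteoglycan perlecan, was above WT, with 485.9 in WT and 864.7 and 743.6 in RASSF9-/- (log2 difference 0.72, SE 0.42, adjusted p = 1.00 by limma).

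All 13 genes for laminin receptors and hemidesmosome proteins were tested, and 8 were lower on both RASSF9-/- arrays, 2 higher on both and 0 called, with a median of -0.37. Dst, whose epithelial product BP230 ties keratin filaments to the hemidesmosome, gave 9720.1 in WT, 7178 on array 1 and 3749.8 on array 2, a difference of -0.91 (adjusted p = 0.988 by limma). Bcam, a receptor of the Lama5 chain, gave 258.3, 165.1 and 189.8, so that ligand and receptor lay on opposite sides of WT, at 0.57 and -0.55, neither past the test. Itga2, an integrin chain that binds collagens and laminins, was above WT at 307.4, 903.5 and 649.2, with a log2 difference of 1.32 (SE 0.46, adjusted p = 0.770 by limma). Itga3, which pairs with Itgb1 as a receptor of laminin-332 and laminin-511, gave 3666, 4675 and 7235, a difference of 0.67.

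Of 16 genes that hydroxylate, fold, cross-link or cleave collagens and laminins, all were tested, 7 were lower on both RASSF9-/- arrays, 3 higher on both, 6 on opposite sides and 0 called, with a median of -0.15. P4ha1, a catalytic subunit of prolyl 4-hydroxylase, gave 717.9 in WT, 381.4 on array 1 and 359.4 on array 2, a log2 difference of -0.96 (adjusted p = 0.959 by limma). Its partner subunit P4hb gave 8711, 11783 and 10533, a difference of 0.35. Plod1, a lysyl hydroxylase, gave 257.2, 157.7 and 159.2, a difference of -0.70, and Tgm2, a transglutaminase, gave 146.1, 120.1 and 98.6, a difference of -0.43. Over the lists of matrix, receptor and maturation genes, 0 genes were called.

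**Figure D4:**
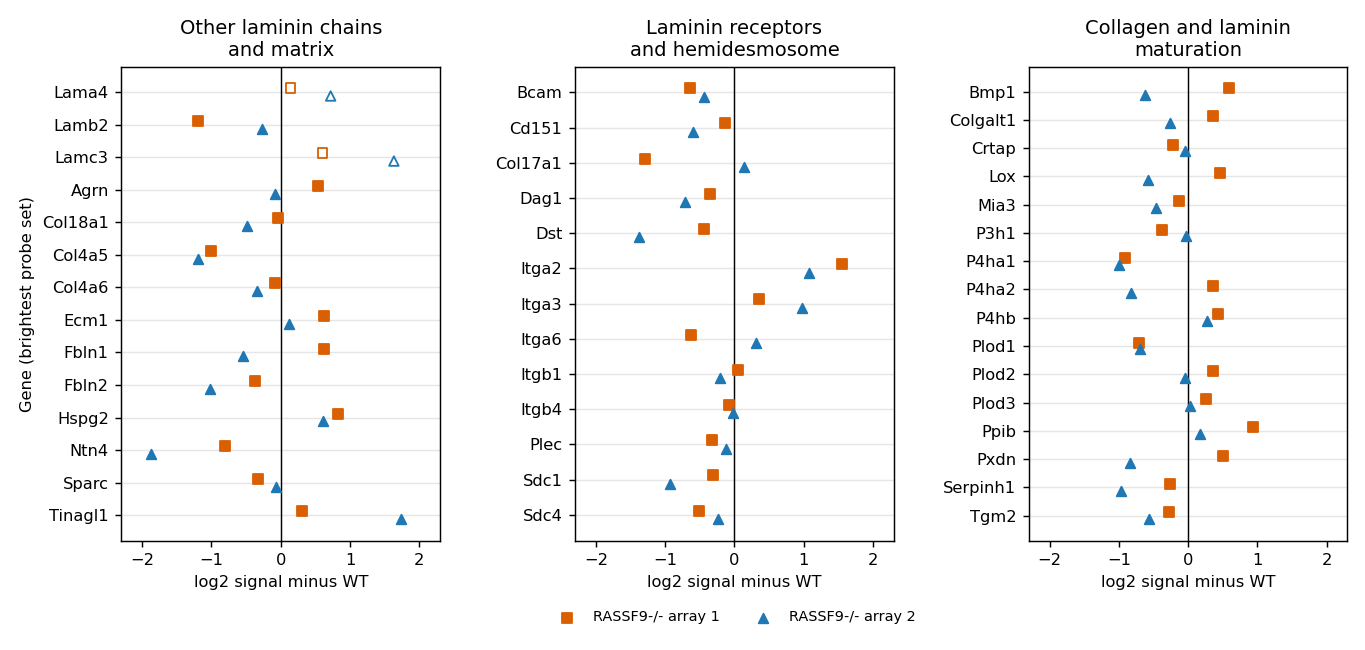
Log2 signal minus WT (horizontal axes) of the tested genes of related lists, with further laminin chains and matrix components, receptors and hemidesmosome proteins, and collagen and laminin maturation in the 3 panels, for RASSF9-/- array 1 (squares) and array 2 (triangles). Open symbols mark probe sets below the background limit on at least 1 array, and genes such as Col4a5, Ntn4 and Dst lie left of 0 on both arrays while Itga2 and Hspg2 lie right of it.

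Markers of the cells that the cultures could hold were read on the same arrays. Of 8 keratinocyte markers 7 were above background on every array, and Krt15 was in background on all. Of the 7 tested, 5 were lower on both RASSF9-/- arrays, 1 was higher on both, 1 lay on opposite sides and 0 were called. Their summed signal was 152960.1 in WT, 119386 on RASSF9-/- array 1 and 143536 on array 2. Trp63, which encodes the basal keratinocyte factor p63, gave 3239 in WT, 1460 on array 1 and 1543 on array 2, a log2 difference of -1.11 (adjusted p = 0.689 by limma). Dsp, Perp and Sfn, of the desmosome and the epidermal cell surface or cytosol, were lower on both RASSF9-/- arrays as well, at 22932, 15116 and 20117 for Dsp, 25071, 13007 and 20723.5 for Perp, and 13610.1, 10722 and 11963 for Sfn. Krt5 gave 34842, 27760 and 34616, Krt14 was nearly level at 38140.1, 38752 and 38300.2, and Cdh1 lay on either side of WT at 15120.2, 12565.5 and 16269.5. Array 1 was the lowest for Trp63, Dsp, Perp, Sfn, Krt5 and Cdh1. RNA quality read from the ratio of 3′ to 5′ control probe sets was 0.84, 0.94 and 0.83 for Gapdh and 1.43, 1.41 and 1.37 for beta-actin, in the order WT, array 1 and array 2.

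Fibroblasts are the cell type beside keratinocytes that is best known for nidogen and that also makes collagen IV. Of 11 fibroblast markers with a probe set, 7 were above background on every array and 1, Dpt, was in background on all. Of the 9 tested, 5 were lower on both RASSF9-/- arrays, 1 was higher on both and 3 lay on opposite sides, with 0 called. The summed signal of the list was 3411 in WT, 5240.4 on RASSF9-/- array 1 and 1700 on array 2. Col1a1 gave 429.4, 243.2 and 143.4, Col1a2 gave 460.0, 247.2 and 165.6, and Thy1 gave 363.8, 232.2 and 111.5, each in the order WT, array 1 and array 2. Pdgfrb was also below WT on both RASSF9-/- arrays, at 105.3, 97.5 and 76.8, which is under the background limit on array 2. Other markers went differently, with Twist2 above WT on both arrays at 173.9, 186.5 and 209.1, Dcn highest on array 2 at 197.3, 189.4 and 300.7, and Col3a1 highest on array 1 at 105.8, 150.8 and 86.1. Postn, at 1438.3, 3687 and 471.3, made up most of the list's sum on array 1. The part of fibroblast RNA in the Col7a1 difference was not tested.

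Mural cell markers, those of smooth muscle and pericytes, were lower on both RASSF9-/- arrays for the 3 of 6 genes tested, with a median of -1.33 and a summed signal of 18219.9 in WT, 5529 on array 1 and 7543 on array 2. Acta2 made up most of it, at 16866, 4891.5 and 6743 (log2 difference -1.55, adjusted p = 0.372 by limma), Notch3 gave 1083.6, 307.4 and 601.8, and Cspg4 gave 137.0, 119.0 and 85.3. Myh11, the defining smooth muscle myosin, was in background on every array. Des and Rgs5 were not tested either. Des was above WT on both RASSF9-/- arrays, at 39.0, 107.7 and 71.3, and in background except on array 1. Rgs5 gave 82.5, 81.1 and 18.9, so it was near WT on array 1 and in background on array 2. Array 1 was the lowest for the sum, and the part of these cells in any member's difference was not tested.

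Melanocyte markers were all above background, 6 of 6, with a summed signal of 28209.6 in WT, 24141 on array 1 and 33895 on array 2. Pmel was below WT on both RASSF9-/- arrays, at 8116, 6519 and 7469.8, while Sox10 was above it at 413.2, 430.2 and 682.1 and Tyr at 545.2, 560.6 and 685.4. The other 3 lay on opposite sides, below WT on array 1 and above it on array 2. They were Dct at 6909.4, 5948.4 and 9714.1, Mlana at 2847.8, 2389.1 and 3208.7, and Tyrp1 at 9377.6, 8293.2 and 12134.6. Endothelial markers were dim, with 3 of 9 tested, 3 of 9 in background on all arrays, and a sum of 537.7, 768.7 and 641.3. The tested ones were Cldn5 at 81.5, 112.3 and 95.9, Egfl7 at 141.6, 179.4 and 148.2, and Kdr at 135.7, 157.3 and 211.3. The defining marker Pecam1 was in background on all arrays. Of 6 leukocyte markers 3 were tested, with 1 higher on both RASSF9-/- arrays and 2 on opposite sides. Cd68 was nearly level at 394.7, 350.8 and 407.0. The list summed to 1322.5, 1617 and 2221.0, with Csf1r at 784.4, 791.8 and 1685.7, which set the sum highest on RASSF9-/- array 2. Cd3e (25.0, 82.3 and 17.8), Cd74 (71.7, 178.3 and 53.5), Fcer1g (15.2, 142.1 and 20.9) and Ptprc (31.5, 71.3 and 36.1, in background on every array) were instead highest on array 1. The part of such cells in the Nid1 value was not tested.

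**Figure D5:**
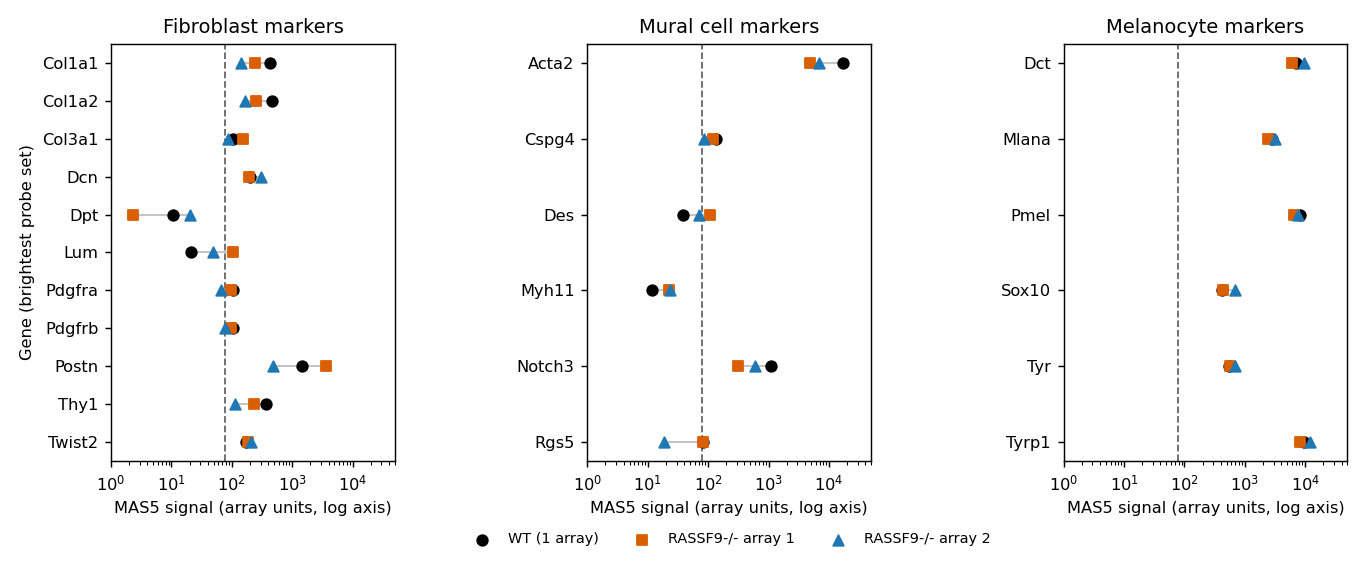
MAS5 signal (log axis, array units) of markers of fibroblasts, mural cells and melanocytes on the WT array (circles), RASSF9-/- array 1 (squares) and array 2 (triangles), with the background limit of 78.4 as a dashed line. Col1a1, Col1a2 and Thy1 step down from WT to array 2, Acta2 is highest in WT, and the melanocyte markers lie above the limit on every array.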

How the data were processed

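The deposited values are MAS5 intensities on a linear scale, 1 per probe set, which the authors scaled to a trimmed mean of 500 per array (2% trimmed from each end, as checked here), with no detection calls. Image files were not used here. Intensities were taken to log2 with no pseudocount and no further normalization. The number of arrays, 1 WT and 2 RASSF9-/-, limits the precision. The annotation gave 34945 of 45037 probe sets 1 symbol, 932 several and 9160 none, and RefSeq gene IDs changed 0 symbols. For each gene the brightest probe set with a mean log2 intensity at or above the 50th percentile (82.7) was tested. The comparison of RASSF9-/- with WT used lmFit and eBayes with an intensity trend, two-sided (limma 3.58.1 in R 4.3.3, 1 residual and 5.31 prior degrees of freedom), and p-values were adjusted over 11089 genes by Benjamini-Hochberg. With 1 residual degree of freedom, p-values rest largely on the spread of other genes. The fit was tested on simulated data with the same spread for every gene and array. That checks the code and not whether the spread assumed for these arrays holds.

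Every member is named, and of each other list up to 4 genes whose smaller change was the largest among genes with the same sign on RASSF9-/- arrays 1 and 2, plus Nid2. An item withheld from this text is not reported here. Krt5, Krt14, Krt15, Cdh1, Dpt, Postn, Twist2, Dcn, Col3a1, Myh11, Des, Rgs5, Dct, Mlana, Tyrp1, Pecam1, Cd68, Cd3e, Cd74, Fcer1g and Ptprc were named after their values were seen. The members and lists were chosen with earlier results of these data known, so lists are described by counts and medians and have no test of their own. Promoter windows were read from RefSeq tables of GRCm38.p6. Alternatives were other normalizations, filters, a pseudocount, other ways to combine the probe sets of 1 gene, a limma fit without trend, and the t-test of the study's methods. Those methods name GeneSpring software for the arrays and t-tests for statistical significance, without tying the t-tests to the arrays. The t-test on the arrays is therefore an alternative run here and not the authors' array analysis.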

Additional observations from a re-analysis of the deposited data

How the results depend on the processing

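No member passed an adjusted p of 0.05 under any limma setting, and their smallest adjusted p lay between 0.640 and 0.997. The methods' t-test without adjustment called 1 member, Lamb1, and 493 genes in all, and with adjustment it called 4 genes and 0 members. Over all genes limma called 9, against 0 under quantile normalization, 0 without the intensity trend, and 0 once values in background were set to the limit of 78.4. The count was 5 with a pseudocount of 32 and 5 with a filter at the 75th percentile. Members higher on both RASSF9-/- arrays numbered 5 of 9, but 3 under quantile normalization and 3 when probe sets were averaged within a gene. Those lower on both numbered 3, but 1, Col7a1, when each array was divided by its median, and 1 when every probe set of a gene had to be lower. The stricter filter and the averaging left Nid1 untested.

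Without RASSF9-/- replicate 1 or 2, a setting added for these counts after seeing the data, 3 to 4 members were lower than WT and 5 to 6 higher, and the members' median was 0.04 to 0.18. Each such value is a difference between 2 arrays with no test. Col7a1 was then -1.94 or -0.91, Nid1 3.76 or 0.61, and Col4a2 0.10 or -0.16, with the first value without replicate 1. Of the values of single members under the alternatives, 87 kept their direction and 1, that of Col4a2 without replicate 1, turned. Values with a test also stayed on the same side of the threshold. Those without replicate 1 or 2 have no test, so they were counted by direction alone, whatever their change in size. No paired analysis was possible because the WT group has 1 array. A fit with the array date as a term leaves no residual degrees of freedom and was not run.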
